A study of Mus musculus with 29 samples.

Results

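The comparison described here is that of microglia from mice that received lipopolysaccharide (LPS), then the CSF1R inhibitor BLZ945, then LPS again (LBL, 5 libraries) with microglia from mice that received saline, BLZ945 and saline (PBP, 5 libraries). These are 10 of the 29 libraries of the study, chosen by their labels, and every gene in the count table was considered. All mice were male C57BL/6J. The first intraperitoneal injection was given at 10 weeks of age and the second 5 weeks later, each of saline or of 1 mg/kg E. coli O111:B4 LPS. From 1 week after the first injection, both groups were gavaged for 5 days with BLZ945 at 169 mg/kg per day, so that the cells profiled at 15 weeks of age had grown back after depletion. Collection was 3 h after the second injection, when live CD11b high, CD45 intermediate, Ly6C-negative cells were sorted for bulk RNA sequencing. Other groups serve as reference points: saline, BLZ945, LPS (PBL, 5 libraries) for a first LPS in repopulated cells, and the vehicle-gavaged groups saline and saline (PP, 5), saline and LPS (PL, 4) and LPS and LPS (LL, 5). A group given LPS, BLZ945 and then saline was not analysed here, so what the first and the second LPS each contribute to the difference between LBL and PBP cannot be told apart. Inhibition of CSF1R by mouth also reaches macrophages outside the brain, and the files hold no measure of how complete the depletion was.

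LPS, a component of the outer membrane of Gram-negative bacteria, is sensed by Toll-like receptor 4 with its partners CD14 and MD-2 (Ly96), and the adaptors MyD88 and TRIF (Ticam1) pass the signal on to NF-kB, MAP kinases and interferon regulatory factors. Macrophages that have met LPS before often give a smaller cytokine response to the next dose (tolerance), while other genes respond again. In the intact animal, LPS also raises circulating glucocorticoids and cytokines of the IL-6 family, which reach microglia through the glucocorticoid receptor and through JAK kinases and STAT3.

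The sorting of the libraries bears on every value below. All LBL libraries were sorted on a MoFlo XDP, replicates 1 to 4 on sorting day 1 and replicate 5 on day 2. PBP replicates 1 to 4 were sorted on a MoFlo Astrios on day 4, and PBP replicate 5 on the XDP on day 3, so no LBL library shares a sorting day with a PBP library, and sorting day and treatment cannot be told apart. List counts and many single genes are therefore also given against PBP replicate 5 alone, in a fit of the 16 XDP libraries in which the spread of that single library was assumed to be that of the other groups. On the first principal component of all libraries, which held 40.1% of the variance, PBP replicates 1 to 4 lay between -86.4 and -64.7, PBP replicate 5 at -1.83 and the LBL libraries between 34.1 and 51.9. Total counts were 6111284 to 9612363 in LBL and 5745164 to 11198323 in PBP, and the RNA quality number was 7.6 to 8.9 in LBL, 8.8 to 9 in PBP replicates 1 to 4 and 7.4 in PBP replicate 5. The cells carried the defining genes of microglia: P2ry12 stood at 4828 ± 243 CPM (counts scaled to library size, SD, n = 5) in LBL and 10170 ± 1564 in PBP, and Tmem119 at 4575 ± 587 and 6960 ± 1032.

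RNA of other brain cells differed between the groups. The summed level of 13 neuron markers was 110 to 261 CPM in LBL, 29.6 to 61.7 in PBP replicates 1 to 4 and 203 in PBP replicate 5, and that of 13 astrocyte markers 700 to 823, 397 to 444 and 517. Most of the astrocyte sum was the single gene Slc1a3. By mean log2 CPM of the astrocyte list, PBP replicate 5 (3.50) lay above all LBL libraries (2.69 to 3.30), and PBP replicates 1 to 4 lay below them (1.46 to 1.62). The 12 oligodendrocyte markers summed to 218 to 330 CPM in LBL, 160 to 185 in PBP replicates 1 to 4 and 283 in PBP replicate 5. The 12 endothelial and pericyte markers summed to 44.5 to 58.6 CPM in LBL, 20.4 to 28.1 in PBP replicates 1 to 4 and 19.9 in PBP replicate 5. Most of the LBL sum was Kdr, with 274 to 394 counts in LBL and 50 to 94 in PBP. By mean log2 CPM of the list the groups overlapped, at -0.52 to 0.26 in LBL and -0.80 to 0.06 in PBP. Of the 5 members tested, Kdr was called higher and Pecam1 lower. The synaptic gene Snap25 had 58.4, 66.3, 63.5, 36 and 28.9 CPM in LBL replicates 1 to 5, and 11.5, 17.5, 9.14, 9.92 and 44.9 in PBP replicates 1 to 5. The groups overlapped through PBP replicate 5, and the fold change of Snap25 was 1.47 (SE 0.40) on the log2 scale against all PBP libraries and 0.16 against PBP replicate 5 (adjusted p = 0.00693 and 0.929, edgeR's quasi-likelihood test with Benjamini-Hochberg adjustment, as for every adjusted p below). Of the neuron markers tested, 6 of 13 were called higher in LBL than in PBP and 0 of 13 against PBP replicate 5. The 15 neutrophil markers summed to 237 to 295 CPM in LBL and 265 to 357 in PBP, most of it Csf3r (264 ± 22 and 295 ± 38 CPM), with Camp, Mmp9, Elane, Mpo and Ly6g at 0 counts in all LBL libraries. The 12 monocyte markers summed to 8.53 to 17.5 CPM in LBL and 13 to 25.7 in PBP, and most of the PBP sum was Ccr2. By mean log2 CPM of that list the groups overlapped, at -0.75 to -0.00 in LBL and -0.93 to -0.37 in PBP. Of the 7 tested, Ccr2 was called lower and 0 higher, with a median log2 change of 0.95 (-0.73 against PBP replicate 5). Ly6c2 and F10 were at 0 counts in both groups, and Chil3 was at 0 in LBL with 3 counts in PBP replicate 5. The 11 markers of border-associated macrophages summed to 203 to 284 CPM in LBL and 273 to 404 in PBP, most of it the single gene Stab1. Of the 10 tested, 4 were called lower, with a median log2 change of -1.27 (-1.34 against PBP replicate 5). The part of these other cells in the results was not tested. In such bulk samples, fewer cells of a type and less RNA per cell cannot be told apart.

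**Figure D1:**
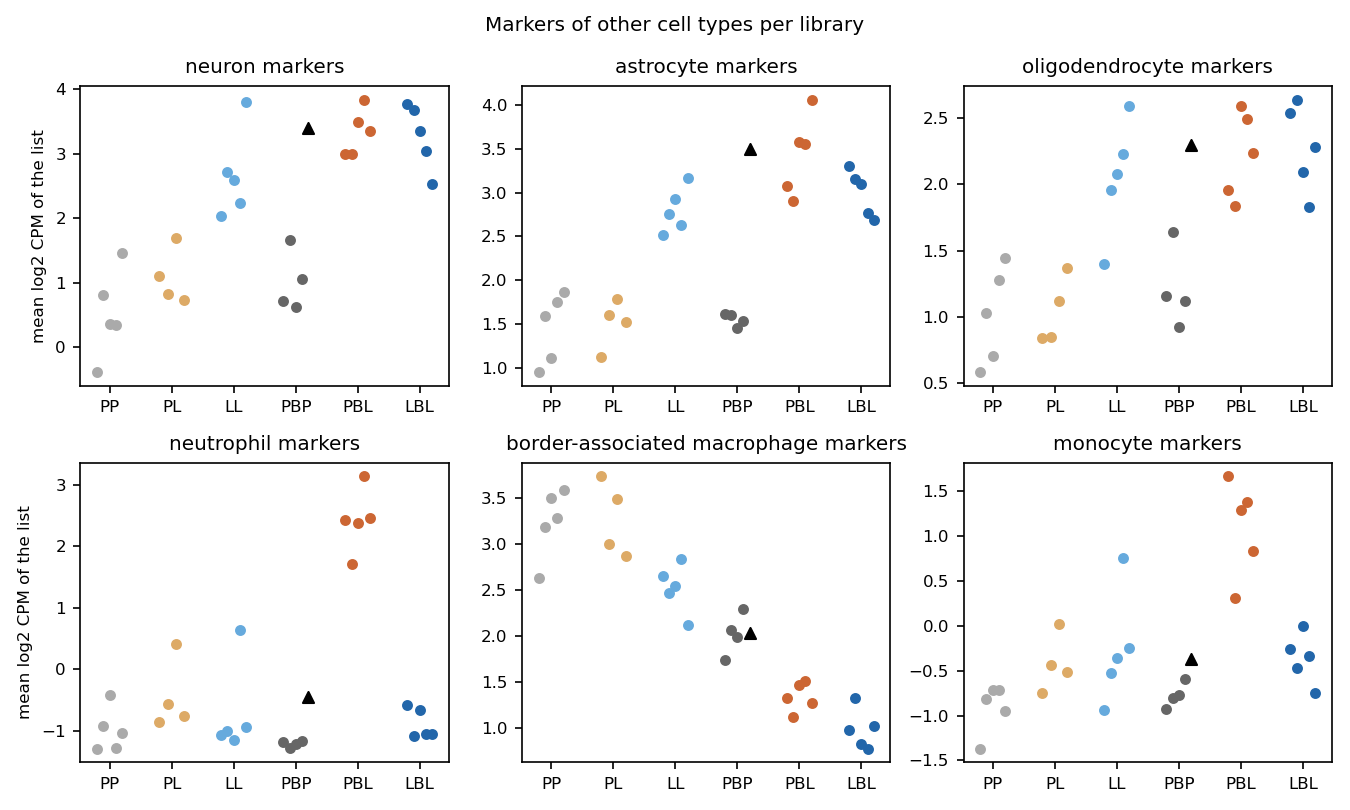
Mean log2 CPM of the marker lists of 6 other cell types (vertical axes) in every library of the 6 groups (horizontal axes), 1 point per library, with PBP replicate 5 as a black triangle. Neuron, astrocyte and oligodendrocyte markers lie higher in LBL than in PBP replicates 1 to 4, with PBP replicate 5 among the LBL libraries or above them, and neutrophil markers are high in PBL and not in LBL.

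Many genes differed between LBL and PBP after the second LPS, in both directions. Of 16632 genes tested, 2423 were higher in LBL than in PBP (14.6%) and 2261 lower (13.6%) at an adjusted p under 0.05, of which 1413 and 651 differed at least 2-fold. The libraries of the groups did not overlap for 1333 of the higher genes (8.01% of genes tested) and 1301 of the lower genes (7.82%). Against PBP replicate 5 alone, 903 of 17933 genes were higher (5.04%) and 570 lower (3.18%), 8.21% in either direction. Of the 2423 higher genes, 780 (32.2%) were also called against PBP replicate 5, as were 448 (19.9%) of the 2253 lower genes tested there. No gene was called in opposite directions in the 2 comparisons, and 2272 and 2055 kept the sign of their change. In simulated counts with the same group sizes, a log2 change of 1 was recovered for 73.5% of changed genes against all PBP libraries and for 19.4% against PBP replicate 5, and a log2 change of 2 for 91.2% and 60.8%. The simulated counts held no difference between sorters or sorting days, and only genes above a CPM of 2 were changed. They cannot show why calls were lost against PBP replicate 5.

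The genes with the largest rise were at low levels or at 0 in PBP. Trem1, which encodes an activating receptor that amplifies inflammatory signalling in myeloid cells, had 27.1, 15.2, 17.8, 14.9 and 14.5 CPM in the LBL libraries and 0 counts in all PBP libraries. The LBL level was thus at least 251-fold higher than the level of 3 counts over the PBP group (adjusted p = 4.42e-14). Cd300lf, an inhibitory receptor of myeloid cells, rose from 4.77 ± 2.25 to 412 ± 84.3 CPM, a log2 change of 6.44 (SE 0.26, adjusted p = 9.95e-19), and by 6.65 against PBP replicate 5. Ptgs2, the inducible cyclooxygenase of prostaglandin synthesis, stood at 0.123 ± 0.123 CPM in PBP and 15.2 ± 4.94 in LBL. Il18rap, a subunit of the IL-18 receptor, stood at 0.132 ± 0.136 and 8.62 ± 2.61 CPM, and was called higher against PBP replicate 5 (adjusted p = 0.000463). Ccr7, a receptor for lymph node chemokines, and Clec4e, a lectin receptor for mycobacterial glycolipids, were at 0 counts in PBP and at 2.82 ± 3.44 and 2.08 ± 1.51 CPM in LBL, at least 39.6-fold and 29.2-fold above the same limit, but their adjusted p against PBP replicate 5 was 0.248 and 0.1. Lrrc66 (0.0311 ± 0.0695 and 2.43 ± 1.78 CPM) rested on 1 count in PBP.

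Of the 12 genes with the largest fall, those also called lower against PBP replicate 5 were Olr1 (described below), Sox4, Cbx8, Cbfa2t3, Tmem204 and Rgs2. Sox4, a transcription factor of the SOX family, fell from 144 ± 21.6 to 15.1 ± 3.53 CPM, by 3.24 (SE 0.15, adjusted p = 2.49e-18), and by 3.27 against PBP replicate 5. Rgs2, which limits signalling of Gq-coupled receptors, went from 825 ± 112 to 128 ± 18.7 CPM, and Cbx8, a Polycomb subunit, from 22.5 ± 5.91 to 2.39 ± 0.969. Cbfa2t3, a transcriptional corepressor, fell by 2.73 (SE 0.21) and Tmem204 by 2.72 (SE 0.24). S1pr1, a receptor for sphingosine 1-phosphate, fell by 2.68 (SE 0.26) and Hhex, a homeobox factor, by 2.45 (SE 0.22). S1pr1 and Hhex were not among the 12 and were named because they were called against PBP replicate 5. Plau, Olfr111, Myb, Dusp27, H4c14 and Clec1a fell by between 2.70 and 3.30 and were not called against PBP replicate 5. Their counts in PBP libraries were 13 to 168, and those of Olr1 were 12 to 33.

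To ask which of the responses to a first LPS remained, genes were taken from the undepleted mice, whose PL and PP libraries are not part of the comparison of LBL with PBP and were all sorted on the Astrios. In PL against PP, 1181 genes rose at least 2-fold (7.1% of genes tested) and 797 fell (4.79%). Of the 1181, 894 (75.7%) were also higher in LBL than in PBP, 285 were not called and 2 were lower, against 14.6% of all genes tested called higher. Of the 797, 499 (62.6%) were also lower, 297 were not called and 1 was higher, against 13.6% of all genes tested called lower. Against PBP replicate 5, the counts were 526 (44.5%) and 227 (28.5%). The median log2 change of the 1181 genes was 1.94 in PL against PP, 1.89 in PBL against PBP, 1.38 in LBL against PBP and 1.34 in LBL against PBP replicate 5. For the 797 genes it was -1.48, -1.35, -1.04 and -1.06. The comparisons of PBL and of LBL share the PBP libraries, so their values are only set side by side.

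**Figure D2:**
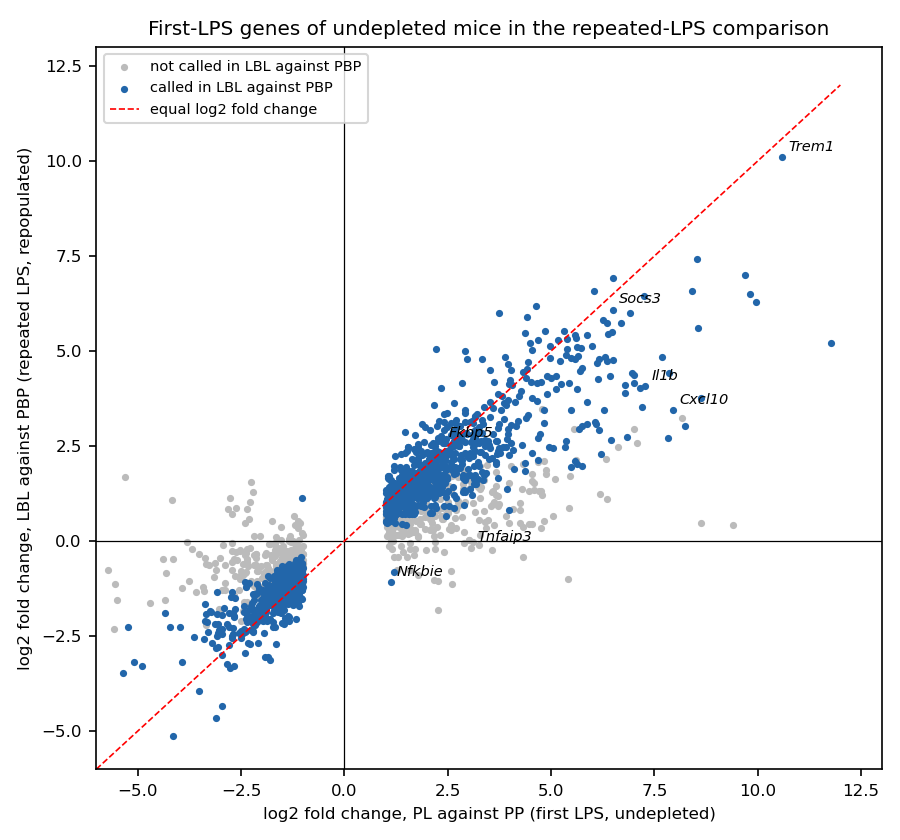
Log2 fold change in LBL against PBP (vertical axis) against that in PL against PP (horizontal axis) for the 1978 genes that changed at least 2-fold after a first LPS in undepleted mice, with genes called in LBL against PBP in blue. Points on the dashed line changed equally in both; the medians of the genes that rose were 1.94 in PL against PP and 1.38 in LBL against PBP, and Nfkbie lies below zero.

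The 3 genes that went the other way were Nfkbie and Arl5c, higher after a first LPS and lower here, and Cldn12, a claudin, with the reverse pattern; they are named because of these values. Nfkbie encodes IkB-epsilon, an inhibitor that retains NF-kB in the cytoplasm. It had 25.9, 10.9, 21.9, 19.3 and 28.5 CPM in the LBL libraries and 42.6, 39.5, 46.6, 60.1 and 33.9 in the PBP libraries, with every LBL library below every PBP library. It fell by 1.08 (SE 0.24, adjusted p = 0.00082) against PBP, while PBL stood at 96.7 ± 10.8 CPM and LBL lay 2.20 below PBL on the log2 scale (adjusted p = 2.27e-07). Against PBP replicate 5 the change of Nfkbie was -0.70 (adjusted p = 0.261). Arl5c went from 14.1 ± 1.82 to 8.05 ± 3 CPM and Cldn12 from 2.18 ± 0.79 to 4.82 ± 0.482, and neither was called against PBP replicate 5.

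A direct test of LBL against PBL, both from the XDP but from different sorting days, was made for the same genes. Between these groups, 456 genes were higher in LBL (2.74% of genes tested) and 665 lower (4%). Without LBL replicate 2 the counts were 253 and 416, and 257 genes were higher without LBL replicate 4 and 232 without PBL replicate 4. Neutrophil markers summed to 418 to 764 CPM in PBL and 237 to 295 in LBL, and monocyte markers to 21.5 to 88.2 and 8.53 to 17.5, and their part in the genes lower in LBL than in PBL was not tested. Of the 894 first-LPS genes still higher in LBL than in PBP, 233 were lower in LBL than in PBL, 7 were higher and 654 were not called, and of the 285 no longer called, 86 were lower than in PBL. Of the 499 genes still lower, 73 were higher in LBL than in PBL, that is, closer to PBP, 4 were lower still and 422 were not called. With 1 library of LBL, PBL or PBP left out, the 7 and the 4 became 3 to 10 and 1 to 5, and the 73 became 41 without LBL replicate 2 and 48 without PBL replicate 3 or 4. A gene not called in this test was not shown to be equal in the groups.

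Inflammatory cytokines and chemokines, the secreted messengers of the response, were raised over PBP but in most cases less than after a first LPS. Of 30 members tested, 18 were higher and 1 lower in LBL than in PBP, 13 and 1 against PBP replicate 5, and 24 were lower in LBL than in PBL. Their median log2 change was 1.48 against PBP, beside 0.00 over all genes tested, and 3.73 in PBL against PBP. Il1b, the precursor of interleukin-1 beta, had 25.9, 31.1, 63.6, 36.2 and 39.8 CPM in the LBL libraries, 1.51, 2.96, 4.03, 2.32 and 0.621 in the PBP libraries and between 237 and 390 in the PBL libraries. The 3 groups did not overlap: Il1b was 4.08 (SE 0.49) above PBP on the log2 scale (adjusted p = 4.47e-07) and 2.93 below PBL (adjusted p = 1.47e-05).

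Tnf, encoding tumour necrosis factor, had 28.6, 13.7, 21.7, 24.9 and 23.3 CPM in LBL and 7.14, 1.67, 1.21, 1.61 and 2.49 in PBP, again without overlap. Its log2 change was 2.95 (SE 0.43, adjusted p = 6.06e-06), and 3.14 against PBP replicate 5 (adjusted p = 0.000552), while PBL stood at 158 ± 27.2 CPM. Cxcl10, an interferon-inducible chemokine for T cells, had 17.5, 10.1, 48.7, 16.2 and 32.8 CPM in LBL, 3.68, 2.44, 2.55, 1.34 and 1.24 in PBP and 537 to 847 in PBL. It was 3.44 (SE 0.66) above PBP (adjusted p = 0.000322), not called against PBP replicate 5 (4.28, adjusted p = 0.173) and 4.82 below PBL on the log2 scale (adjusted p = 2.66e-06). Ccl5, a chemokine for T cells and monocytes, stood at 5.32 ± 1.83 CPM in PBP, 20.7 ± 9.63 in LBL and 212 ± 56.3 in PBL, and was not called against PBP replicate 5 (2.07, adjusted p = 0.251).

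Chemokines that bind CCR2 were higher than in PBP. Ccl12, a ligand of CCR2, had 1588, 1724, 2582, 2845 and 2570 CPM in LBL and 125, 88.7, 79.9, 63.7 and 51.6 in PBP, far from overlap. It rose by 4.79 (SE 0.26, adjusted p = 5.17e-14) against PBP and by 5.44 against PBP replicate 5, and lay 0.74 below PBL (adjusted p = 0.0418). Ccl2, the other main CCR2 ligand, stood at 16.2 ± 14.3 CPM in PBP, 138 ± 34.4 in LBL and 239 ± 79.3 in PBL, with no call between LBL and PBL (adjusted p = 0.244). Ccl7, also a CCR2 ligand, stood at 2.09 ± 0.881 CPM in PBP, 10.1 ± 4.83 in LBL and 37.3 ± 6.5 in PBL, 2.30 above PBP and 1.88 lower than in PBL on the log2 scale (adjusted p = 0.000281 and 0.00172). Il6, encoding interleukin-6, rose slightly, from 22.4 ± 2.95 to 30.9 ± 3.54 CPM (log2 change 0.46, adjusted p = 0.011), and was not called against PBP replicate 5. Il15 was the one member called lower, from 8.61 ± 3.44 to 3.86 ± 1.77 CPM, with a change of -0.06 against PBP replicate 5 and no call without PBP replicate 1 (-0.90). Il12b, the p40 subunit of IL-12 and IL-23, ranged widely within LBL (11.4 ± 13.6 CPM), against 0.299 ± 0.311 in PBP and 133 ± 51.5 in PBL, and was not called against PBP replicate 5 (adjusted p = 0.386).

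**Figure D3:**
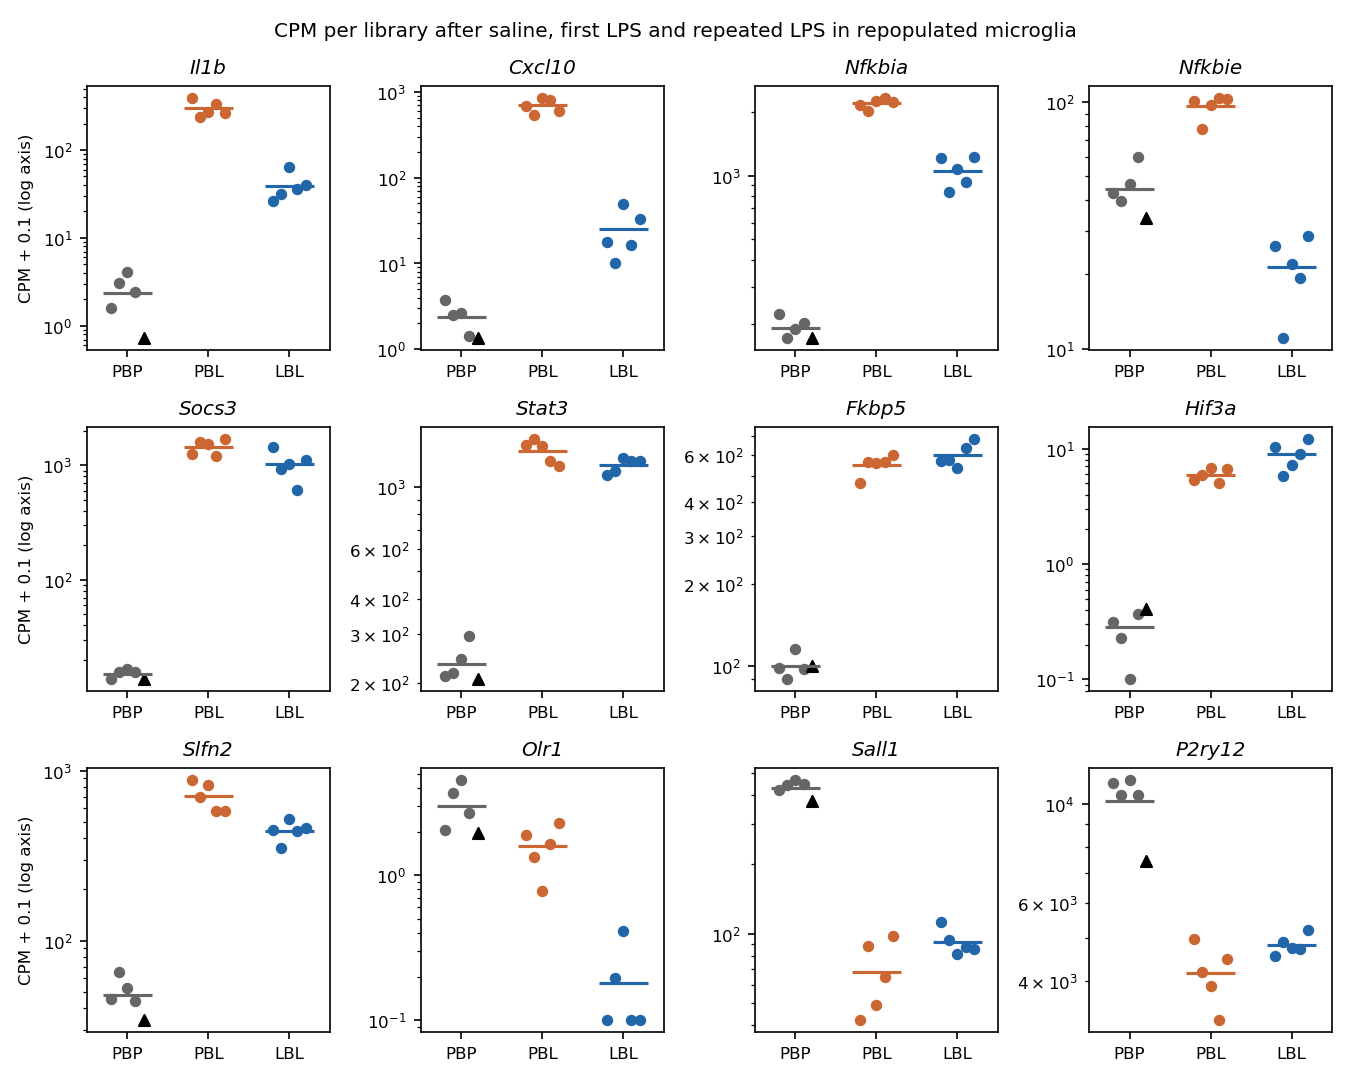
CPM (plus 0.1, log axes) of 12 genes in each of the 5 libraries of PBP, PBL and LBL; points are libraries, horizontal lines are group means and the black triangle is PBP replicate 5. Il1b and Cxcl10 lie between PBP and PBL in LBL, Socs3, Stat3 and Fkbp5 lie near the PBL libraries, and Nfkbie and Olr1 lie below PBP.

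The NF-kB subunits and feedback inhibitors divided within the list. Of 33 tested, 15 were higher and 2 lower than in PBP, 12 and 0 against PBP replicate 5, with a median log2 change of 0.61, and 25 were lower in LBL than in PBL. Nfkbia encodes IkB-alpha, the inhibitor that NF-kB itself induces; it had 1212, 834, 1072, 930 and 1220 CPM in LBL and 222, 171, 190, 202 and 172 in PBP. It rose by 2.46 (SE 0.11, adjusted p = 1.79e-18), by 2.60 against PBP replicate 5, and lay 1.05 below PBL (adjusted p = 9.12e-08). Bcl3, an atypical IkB protein that acts in the nucleus, had 66.7, 43.3, 59.1, 62.3 and 75.1 CPM in LBL and 0.865, 0.9, 1.34, 1.16 and 1.4 in PBP, without overlap. Its log2 change was 5.75 (SE 0.23, adjusted p = 5.62e-20), and 5.42 against PBP replicate 5, and it lay 0.81 below PBL (adjusted p = 0.00101). The adhesion molecule Icam1 and the A20-binding protein Tnip2 rose by 2.08 (SE 0.13) and 1.99 (SE 0.13), and by 2.38 and 2.08 against PBP replicate 5. Tnfaip3, which encodes the ubiquitin-editing inhibitor A20, stood at 46.1 ± 14.1 CPM in LBL, 51.5 ± 8.56 in PBP and 405 ± 94.5 in PBL. It was not called against PBP (-0.17, SE 0.33, adjusted p = 0.744) and lay 3.14 below PBL (adjusted p = 1.11e-06). Atf3, a stress-induced repressor of cytokine genes, was called lower than in PBP with Nfkbie, by 1.12 (SE 0.25), with -0.79 against PBP replicate 5 (adjusted p = 0.378).

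Promoters of Nfkbia and of Cxcl10, a chemokine gene outside this list, are shown, and both hold the NF-kB letters given below. Both genes stood above PBP and below PBL in LBL, as did others such as Bcl3. The 300 bases run from 250 before to 50 after the start of transcription in the RefSeq table of build GRCm38.p6, 5′ to 3′ on the strand of the gene, and capitals mark the NF-kB letters GGGANNTTC on either strand, with N any base.
Nfkbia, chr12:55492598-55492897 (minus strand): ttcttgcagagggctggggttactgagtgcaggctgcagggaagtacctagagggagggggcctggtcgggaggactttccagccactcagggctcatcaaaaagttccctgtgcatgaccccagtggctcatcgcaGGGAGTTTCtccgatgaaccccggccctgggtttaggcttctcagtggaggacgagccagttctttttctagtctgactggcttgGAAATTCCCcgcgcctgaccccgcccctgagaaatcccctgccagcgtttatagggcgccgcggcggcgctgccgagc
Cxcl10, chr5:92348840-92349139 (minus strand): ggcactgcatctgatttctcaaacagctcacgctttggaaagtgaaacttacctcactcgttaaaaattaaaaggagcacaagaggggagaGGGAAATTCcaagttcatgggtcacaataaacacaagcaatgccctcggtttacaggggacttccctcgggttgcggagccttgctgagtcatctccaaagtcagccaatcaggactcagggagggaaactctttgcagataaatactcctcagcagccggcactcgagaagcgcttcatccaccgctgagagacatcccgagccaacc
Of the 17 called genes of the list, 16 had a promoter in that table, and 2 of these had the letters (12.5%, Nfkb2 and Nfkbia). Of the 12 genes with the largest rise, 11 had a promoter and 0 the letters, beside 4.47% of all 27025 genes with a promoter. A gene counted if any of its promoters held the letters. A match describes the letters and not binding.

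The receptor side of the pathway moved in both directions. Of 26 TLR4 complex and signalling genes, 9 were higher and 8 lower than in PBP, 5 and 2 against PBP replicate 5, and the median change was 0.14. Tlr4 itself was lower, at 95 ± 5.72 CPM against 167 ± 34 in PBP (log2 change -0.81, SE 0.14, adjusted p = 3.72e-05), but at -0.24 against PBP replicate 5 (adjusted p = 0.588). It was higher in LBL than in PBL, by 0.89 (adjusted p = 9.36e-05). Its coreceptor Cd14 rose by 1.13 (SE 0.12) to 3179 ± 314 CPM and the adaptor Myd88 by 1.59 (SE 0.13) to 333 ± 25.6 CPM, and by 1.47 and 2.23 against PBP replicate 5. Map3k8, the kinase upstream of ERK in this pathway, rose by 3.46 (SE 0.20), and by 4.04 against PBP replicate 5. Irak2, a kinase of the MyD88 complex, was 1.19 (SE 0.17) lower, with -0.66 against PBP replicate 5 (adjusted p = 0.208). Tlr2, the receptor for bacterial lipoproteins, went from 243 ± 37.8 to 474 ± 141 CPM, was not called against PBP replicate 5 (adjusted p = 0.127), and lay 2.12 below PBL.

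Most genes of IL-6 family, STAT3 and IL-10 signalling rose. Of 29 tested, 21 were higher and 4 lower than in PBP, 15 and 2 against PBP replicate 5, with a median log2 change of 2.27 (2.88 against PBP replicate 5). In PBL against PBP the median was 2.46, and 10 members were lower and 2 higher in LBL than in PBL. Socs3, the feedback inhibitor of gp130 signalling that STAT3 induces, had 1439, 921, 1021, 614 and 1123 CPM in LBL, and 13.5, 15.6, 16.7, 15.6 and 13.4 in PBP. The groups lay far apart: Socs3 rose by 6.09 (SE 0.22, adjusted p = 2.31e-20), by 6.24 against PBP replicate 5, and was not called against PBL (-0.51, adjusted p = 0.0656). Stat3 itself had 1107, 1144, 1267, 1241 and 1240 CPM in LBL and 211, 218, 243, 294 and 206 in PBP. Its change was 2.35 (SE 0.09, adjusted p = 7.91e-21), 2.53 against PBP replicate 5 and -0.16 against PBL (adjusted p = 0.286).

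Sbno2, a corepressor downstream of IL-10, rose by 3.95 (SE 0.21) and the kinase Pim1 by 4.15 (SE 0.22), with 3.29 and 3.86 against PBP replicate 5. Lrg1, a secreted glycoprotein of the acute phase, had 10.4, 16.1, 19.9, 14.7 and 12.9 CPM in LBL, 0.932 in PBP replicate 5 and 0 counts in the other PBP libraries. Its log2 change was 6.51 (SE 0.50) against all PBP libraries and 3.95 against PBP replicate 5. Lcn2, which encodes the iron-scavenger carrier lipocalin-2, had 0.947, 0.68, 0.931, 0.46 and 0.723 CPM in LBL and 0 counts in PBP, at least 10.5-fold above 3 counts over the PBP group, and 12 ± 4.48 CPM in PBL. The acute phase gene Saa3 stood at 3.86 ± 2.57 CPM in LBL and had 1 count in PBP. The 4 members called lower were the receptor genes Il6ra, Il6st, Il10ra and Il10rb; Il10ra went from 316 ± 66 to 144 ± 20.9 CPM, was called against PBP replicate 5 as well (-0.69, adjusted p = 0.045) and lay 0.85 below PBL.

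Cish, a feedback inhibitor of STAT5 signalling, was among the 12 genes with the largest rise, at 25.3 ± 8.9 CPM in LBL and 0.375 ± 0.14 in PBP. Its promoter and that of Socs3 are shown as those of the SOCS family genes that rose most, with the STAT letters TTCNNNGAA in capitals, which read alike on both strands; this motif was added after the values were seen.
Socs3, chr11:117969317-117969616 (minus strand): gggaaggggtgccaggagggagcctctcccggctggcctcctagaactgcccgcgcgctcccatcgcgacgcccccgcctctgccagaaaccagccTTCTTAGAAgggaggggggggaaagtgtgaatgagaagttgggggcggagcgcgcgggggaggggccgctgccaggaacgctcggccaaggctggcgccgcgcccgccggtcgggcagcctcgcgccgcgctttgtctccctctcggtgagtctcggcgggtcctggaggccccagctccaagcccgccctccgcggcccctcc
Cish, chr9:107296409-107296708 (plus strand): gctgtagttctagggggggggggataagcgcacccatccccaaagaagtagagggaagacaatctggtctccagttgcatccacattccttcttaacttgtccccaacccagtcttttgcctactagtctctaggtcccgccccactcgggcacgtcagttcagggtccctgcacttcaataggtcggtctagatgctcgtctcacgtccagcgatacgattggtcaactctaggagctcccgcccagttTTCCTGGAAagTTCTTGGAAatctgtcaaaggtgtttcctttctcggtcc
Of the 25 called genes of the list, 20 had a promoter, and 4 of these had the letters (20%, Socs3, Sbno2, Bcl6 and Steap4). So did 3 of 11 genes with a promoter among those with the largest rise (27.3%, Trem1, Socs3 and Cish) and 0 of 8 among those with the largest fall. The share of all genes with a promoter was 9.55%. The letters were also found for 4 of the 16 called NF-kB list genes with a promoter (25%, Nfkb2, Tnip2, Zfp36 and Icam1).

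Glucocorticoid-responsive and metallothionein genes rose in LBL, among them Fkbp5, Hif3a and Mt1. This list shares Nfkbia with the NF-kB list and Lcn2 with the neutrophil markers, so the lists are not independent of each other. Of 24 tested, 17 were higher and 4 lower than in PBP, 14 and 1 against PBP replicate 5, and the median log2 change was 2.47, beside 2.81 in PBL against PBP. Fkbp5, a chaperone of the glucocorticoid receptor and a standard readout of its activity, had 569, 572, 535, 635 and 684 CPM in LBL and 98.3, 89.4, 116, 97.8 and 100 in PBP. It rose by 2.58 (SE 0.14, adjusted p = 6.87e-17), by 2.56 against PBP replicate 5, with 0.12 against PBL (adjusted p = 0.676). Hif3a, a hypoxia-inducible factor that glucocorticoids induce, had 10.3, 5.74, 7.14, 8.96 and 12 CPM in LBL and 0.216, 0.129, 0, 0.268 and 0.311 in PBP. The groups did not overlap, and Hif3a rose by 5.43 (SE 0.47, adjusted p = 3.01e-11) and by 4.74 against PBP replicate 5. Metallothionein Mt1, which binds zinc, rose by 2.55 (SE 0.14) and transglutaminase Tgm2 by 2.60 (SE 0.16), with 2.57 and 2.78 against PBP replicate 5, and both were lower than in PBL. Arrdc3, an arrestin-domain protein, fell by 2.36 (SE 0.34) and was not called against PBP replicate 5 (-1.43, adjusted p = 0.0596).

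Interferon-stimulated genes rose in part, and 23 of those tested stood below their level after a first LPS. Of 41 tested, 14 were higher and 6 lower than in PBP, 12 and 0 against PBP replicate 5, and the median change was 0.38 (1.15 in PBL against PBP). Slfn2, a Schlafen gene of immune cells, had 447, 351, 522, 443 and 457 CPM in LBL and 45.1, 65.1, 52.3, 44.2 and 33.9 in PBP, and rose by 3.21 (SE 0.15, adjusted p = 1.79e-18), and by 3.70 against PBP replicate 5. Stat2, Gbp7 and Trim30a rose by 1.81, 1.72 and 1.21, and by 2.12, 1.95 and 1.15 against PBP replicate 5. Isg15, a ubiquitin-like antiviral protein, stood at 9.84 ± 1.97 CPM in LBL, 8.03 ± 1.19 in PBP and 32.6 ± 8.63 in PBL and was not called against PBP (adjusted p = 0.331). Ifit1, which binds viral RNA, stood at 12.5 ± 2.96, 7.14 ± 3.49 and 51.9 ± 15.2 CPM in the same groups, and its rise of 0.81 (SE 0.28, adjusted p = 0.0278) was not called against PBP replicate 5 (adjusted p = 0.159). Mx1, an antiviral GTPase, had 2.68, 0.486, 1.4, 2.41 and 1.01 CPM in LBL and 5.62, 6.17, 3.76, 2.68 and 2.49 in PBP, groups that overlap. It was 1.39 (SE 0.53) lower than in PBP (adjusted p = 0.0488), but with -0.67 against PBP replicate 5 (adjusted p = 0.768). With 1 library left out, the change of Ifit1 was 0.64 to 1.14 and that of Mx1 -1.64 to -1.13, and each lost its call without any of 6 libraries: LBL replicates 1 and 4 and PBP replicates 1, 3, 4 and 5 for Ifit1, and LBL replicates 2, 3 and 5 and PBP replicates 1, 2 and 3 for Mx1. The immunoproteasome genes Psmb8 and Psmb9 fell by 0.47 (SE 0.09) and 0.67 (SE 0.14), and neither was called against PBP replicate 5.

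**Figure D4:**
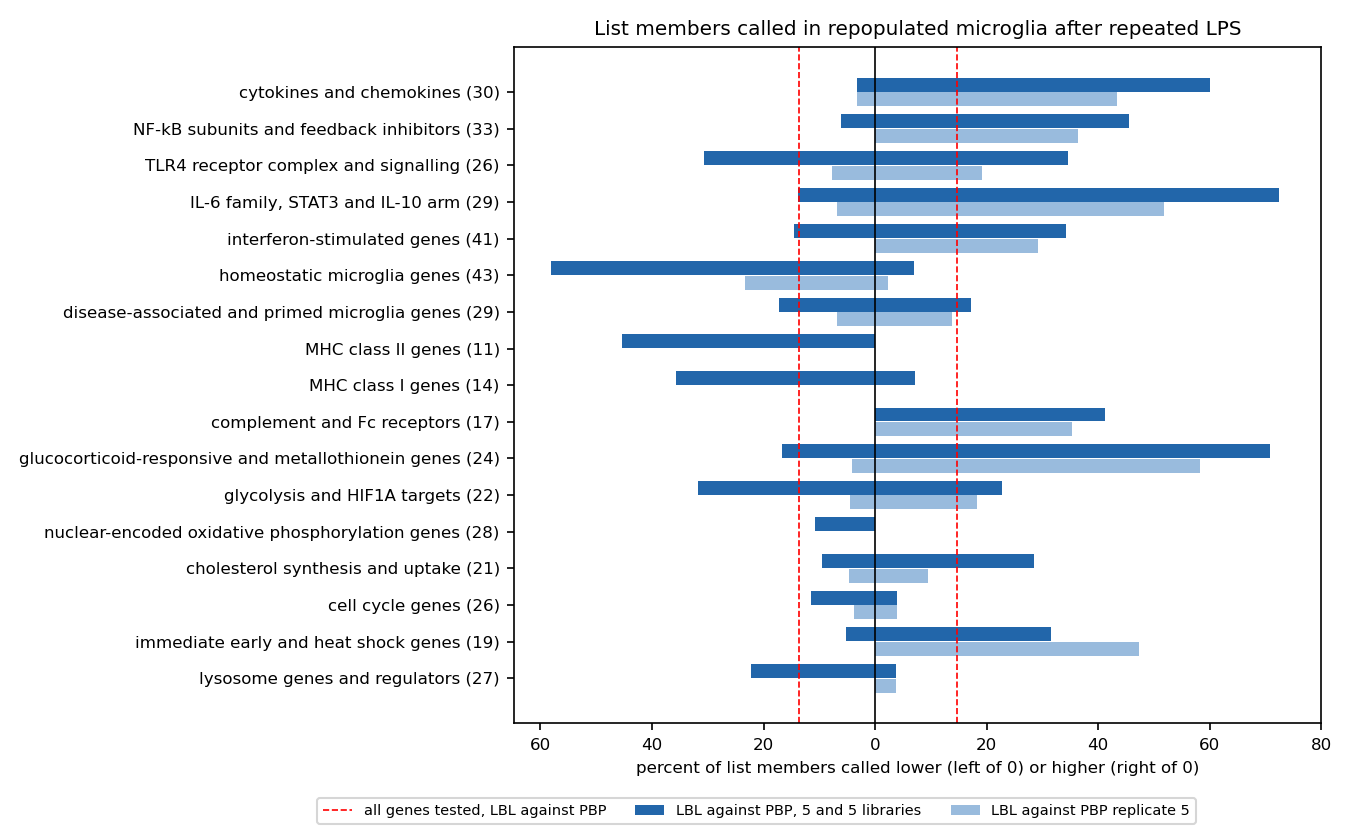
Percent of the members of 17 gene lists called higher (right of 0) or lower (left of 0) in LBL against all PBP libraries (dark bars) and against PBP replicate 5 (light bars); the number of members tested is in brackets and dashed lines mark 14.6% and 13.6%, the shares of all genes tested called higher and lower. Among the dark bars, the IL-6 family and STAT3 list has the longest to the right and the homeostatic list the longest to the left.

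Genes of the homeostatic microglia programme, which mark microglia in the undisturbed brain, were lower. Of 43 tested, 25 were lower and 3 higher than in PBP, 10 and 1 against PBP replicate 5, with a median change of -0.29 (-0.12 against PBP replicate 5). Sall1, a transcription factor that maintains microglial identity, had 112, 93.4, 81.5, 87.8 and 85.9 CPM in LBL and 418, 442, 464, 444 and 376 in PBP. It fell by 2.22 (SE 0.17, adjusted p = 7.96e-13), by 2.04 against PBP replicate 5, and was not called against PBL (0.43, adjusted p = 0.12). P2ry12, the purinergic receptor that steers microglial processes, had 4561, 4906, 4744, 4723 and 5203 CPM in LBL and 11145, 10465, 11315, 10466 and 7459 in PBP. Every LBL library was below every PBP library, and P2ry12 fell by 1.07 (SE 0.11, adjusted p = 1.16e-09), and by 0.64 against PBP replicate 5 (adjusted p = 0.00901). Cx3cr1, the fractalkine receptor, fell by 1.05 (SE 0.11), Gpr34, a lysophosphatidylserine receptor, by 1.43 (SE 0.12) and the transcription factor Mef2c by 0.88 (SE 0.09), each called against PBP replicate 5 as well. Tmem119 fell by 0.61 (SE 0.11), with -0.30 against PBP replicate 5 (adjusted p = 0.412). P2ry6, a UDP receptor linked to phagocytosis, rose by 0.75 (SE 0.08), and by 0.87 against PBP replicate 5. Csf1r, the target of BLZ945, was not called (-0.18, SE 0.13, adjusted p = 0.287; 0.12 against PBP replicate 5).

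Of 11 MHC class II genes, 0 were higher and 5 lower than in PBP, and of 14 MHC class I genes 1 and 5, while against PBP replicate 5 none of either list was called. The class II gene H2-Aa had 30.3, 34.7, 25.4, 25.3 and 7.23 CPM in LBL and 43.2, 63.7, 65.6, 58.9 and 30.1 in PBP. The groups overlapped, and H2-Aa fell by 1.08 (SE 0.32, adjusted p = 0.012), with -0.30 against PBP replicate 5 (adjusted p = 0.844). Cd74, the invariant chain, stood at 191 ± 30.3 CPM in LBL and 281 ± 54.5 in PBP and was not called (adjusted p = 0.0581), and it lay 1.06 below PBL (adjusted p = 0.00317). Of 17 complement and Fc receptor genes, 7 were higher and 0 lower, 6 and 0 against PBP replicate 5. C5ar1, the receptor of the anaphylatoxin C5a, rose from 339 ± 35.9 to 1477 ± 149 CPM, by 2.13 (SE 0.11, adjusted p = 1.34e-17), and by 2.28 against PBP replicate 5. The IgG receptors Fcgr4, Fcgr2b and Fcgr3 rose by 1.39, 0.89 and 0.78, and by 1.46, 1.08 and 1.16 against PBP replicate 5.

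**Figure D5:**
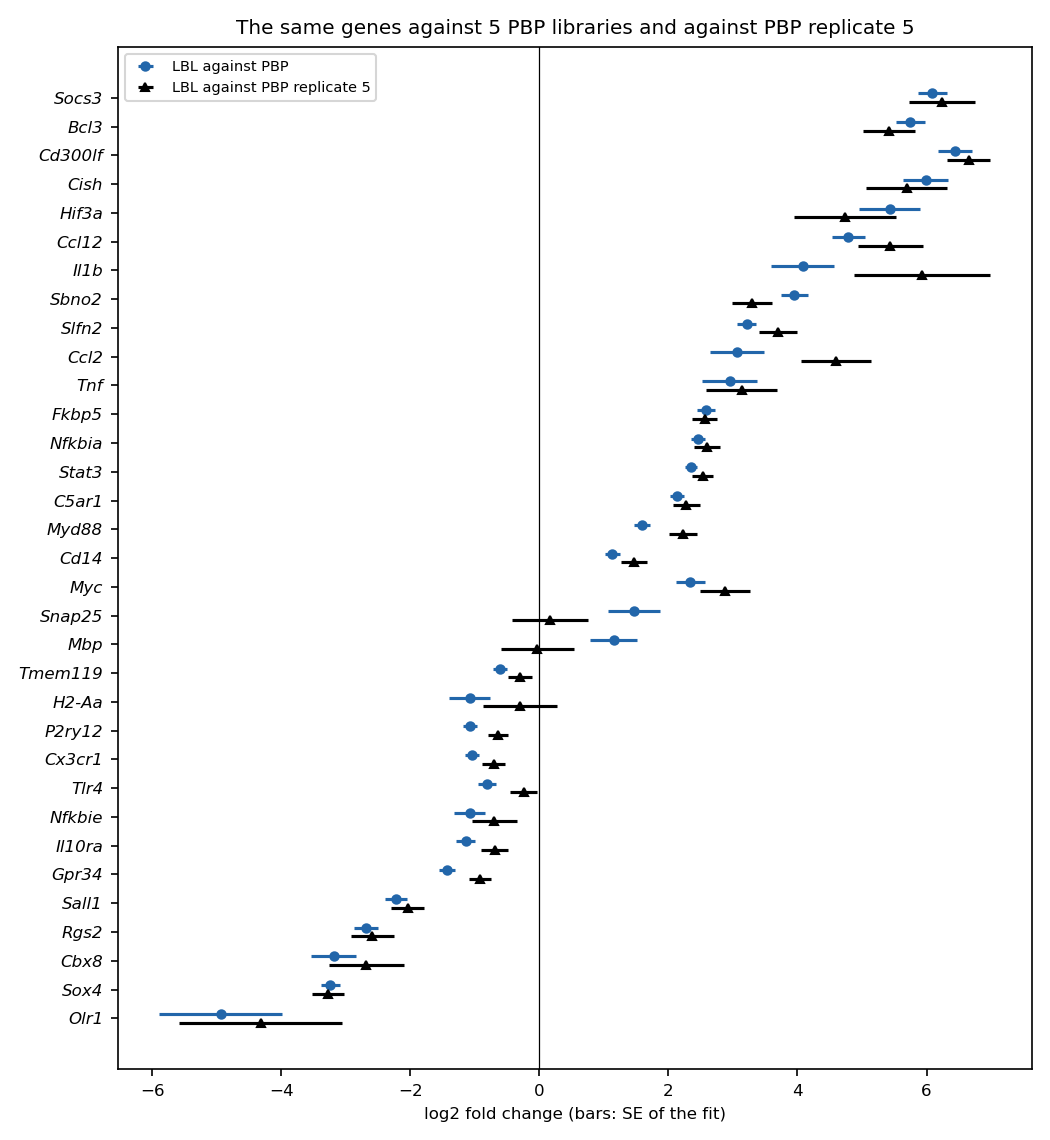
Log2 fold change (horizontal axis, bars are the SE of each fit) of 33 genes in LBL against all 5 PBP libraries (blue circles) and against PBP replicate 5 alone (black triangles). Socs3 (6.09 and 6.24) and Sall1 (-2.22 and -2.04) have nearly the same value in both, while Snap25 and Mbp lie near 0 against PBP replicate 5.

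Among metabolic genes, those of glucose use moved in both directions, with a median log2 change of -0.06. Of 22 glycolysis and HIF1A target genes, 5 were higher and 7 lower, 4 and 1 against PBP replicate 5: the glucose transporter Slc2a1 rose by 2.15 (SE 0.15), Slc2a3 by 2.48 (SE 0.33), Ldha, which makes lactate, by 1.24 (SE 0.11), and Pfkfb3, an activator of glycolysis, by 1.38 (SE 0.15). The same 4 were 2.25, 1.80, 1.58 and 1.70 above PBP replicate 5. Among the members called lower than in PBP, Pfkfb4 had the largest fall, with 306 to 613 counts in LBL and 520 to 1306 in PBP. Of 28 nuclear-encoded oxidative phosphorylation genes, 3 were lower and 0 higher, and 0 were called against PBP replicate 5, but 12 were lower when PBP replicate 5 was left out (then 20.2% of all genes were higher and 16.2% lower). Of 27 lysosome genes, 6 were lower and 1 higher, 0 and 1 against PBP replicate 5, and 12 were lower without PBP replicate 5. Of 21 genes on the cholesterol synthesis and uptake list, 6 were higher and 2 lower, with a median log2 change of 0.15 (0.59 against PBP replicate 5). The 2 lower were the cholesterol exporters Abca1 and Abcg1, which this list also holds. They fell by 0.63 (SE 0.10) and 0.89 (SE 0.11), with smaller changes of -0.33 and -0.77 against PBP replicate 5. Of 26 cell cycle genes, 1 was higher and 3 lower, 1 and 1 against PBP replicate 5. Of 19 immediate early and heat shock genes, 6 were higher and 1 lower, with a median log2 change of 0.58 (1.55 against PBP replicate 5). Fosl2 was up by 3.99 (SE 0.20), and by 3.88 against PBP replicate 5. PBP replicate 1 had 946 counts of Fos and 1410 of Egr1, beside 6 to 13 and 25 to 69 in the other PBP libraries. Immediate early genes that were not called were thus not shown to be unchanged.

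The list of disease-associated and primed microglia genes, which are raised in ageing and neurodegeneration, had 5 of 29 members higher and 5 lower (17.2% each, beside 14.6% and 13.6% of all genes tested), 4 and 2 against PBP replicate 5, with a median change of -0.04. Spp1, encoding osteopontin, rose from 17.3 ± 14.4 to 247 ± 69.7 CPM (log2 change 3.83, SE 0.42, adjusted p = 1.26e-07), and by 5.41 against PBP replicate 5. Ch25h, which makes 25-hydroxycholesterol, stood at 1.51 ± 0.917 CPM in PBP, 38 ± 11.9 in LBL and 197 ± 71.9 in PBL. Plin2 was among the members called lower than in PBP, with 107 to 235 counts in the LBL libraries and 233 to 654 in the PBP libraries. Apoe (997 ± 179 and 1028 ± 140 CPM in LBL and PBP), Axl (35.9 ± 13.4 and 37.4 ± 8.68) and Cst7 (13.6 ± 3.62 and 12.9 ± 3.77), named here after their values were seen, were not called.

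Genes that differed from PBP were also compared with PBL, where 2.74% of all genes tested were higher in LBL and 4% lower. Of the 2423 genes higher in LBL than in PBP, 35 were also higher than in PBL (30 of them also called against PBP replicate 5), 306 were lower than in PBL and 2082 were not called. Of the 2261 lower genes, 74 were also lower than in PBL (41 called against PBP replicate 5), 175 were higher and 2012 were not called. The 35 are 1.44% of the higher genes and the 74 are 3.27% of the lower genes, both below those shares of all genes. The 35 became 12 without LBL replicate 4, 15 without PBL replicate 4 and 23 without LBL replicate 3, PBL replicate 3 or PBL replicate 5. Without LBL replicate 2 the 74 became 47, the 306 became 199 and the 175 became 93, and the 175 became 114, 108 and 106 without LBL replicate 1, LBL replicate 4 and PBL replicate 4. The genes named from these sets were chosen after their values were seen. Lifr, the receptor subunit for leukaemia inhibitory factor, stood at 220 ± 41.5 CPM in PBP, 218 ± 24.6 in PBL and 427 ± 51 in LBL, 0.97 above PBL on the log2 scale (adjusted p = 0.000116). The transcription factor Myc stood at 89.8 ± 20, 252 ± 97.8 and 453 ± 75.2 CPM, and Tsc22d3, the glucocorticoid-induced leucine zipper, at 194 ± 69.5, 356 ± 60.1 and 620 ± 56.5.

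Olr1, a scavenger receptor for oxidized LDL, had the largest fall of the named genes, with 0, 0.0972, 0.31, 0 and 0 CPM in LBL and 1.95, 3.6, 4.43, 2.59 and 1.86 in PBP. It fell by 4.94 (SE 0.95, adjusted p = 0.000142) and by 4.32 against PBP replicate 5 (adjusted p = 0.0325), and lay 4.00 below PBL (adjusted p = 0.00855), whose mean was 1.49 ± 0.569 CPM. Ptafr, the receptor for platelet-activating factor, stood at 327 ± 51.4 CPM in PBP, 367 ± 74 in PBL and 100 ± 12.6 in LBL, 1.88 below PBL on the log2 scale (adjusted p = 9.42e-08). The transcriptional repressor Prdm1 stood at 14.7 ± 3.35, 24.8 ± 2.49 and 6.07 ± 2.21 CPM in the same groups, and Lacc1, an immunometabolic enzyme of macrophages, at 67.5 ± 18.6, 132 ± 27.5 and 40.6 ± 10.9.

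Neutrophil genes were higher after a first LPS in repopulated mice, and 2 of them were at or near 0 after the second. Camp, encoding the granule peptide cathelicidin, had 0 counts in every LBL library and 14.9 to 78.4 CPM in PBL, and S100a9, a calprotectin subunit, stood at 0.0936 ± 0.139 CPM in LBL and 39.3 ± 19.6 in PBL. Of 8 neutrophil markers tested, 7 were lower in LBL than in PBL, and the 1 called higher than in PBP was Lcn2.

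Whether repopulation changed the residual response was tested as the difference between LBL minus PBP and LL minus PP, which share no library. No gene was called by edgeR's quasi-likelihood test (0 of 16632, smallest adjusted p = 0.775), and 692 (4.16%) had an unadjusted p under 0.05; DESeq2 and limma-voom called 0. In this test Il1b, Socs3, Fkbp5 and Sall1, whose changes were 4.08, 6.09, 2.58 and -2.22 in LBL against PBP, had changes of 5.05, 5.86, 2.28 and -2.21 in LL against PP. The median change of the 1181 first-LPS genes was 1.38 in LBL against PBP and 1.52 in LL against PP, and of the 797 genes -1.04 and -1.05. That no difference was called does not show that the responses were equal. LL libraries were sorted on the XDP and PP libraries on the Astrios.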

How the data were processed

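Bulk RNA of sorted microglia was measured in 29 libraries, 1 sample each, and the labels do not say that each came from its own animal, and the p-values speak for the spread of samples, which may be technical. The authors deposited whole-number read counts per gene, not normalized, per the file headers. The submitters' processing notes name HTSeq 0.11.0, TopHat, Picard 2.13.2, SAMtools 1.10, cutadapt 2.10 and FastQC 0.11.9, with build GRCm39. No source used here states the annotation release or strand setting, so antisense partners and near-identical copies (MHC class I, histone and chemokine genes) are uncertain. The authors' deposited sample table gives the RNA quality number (a score on which intact RNA is high), the RNA concentration and the sorting day. Promoters come from RefSeq on GRCm38.p6, matched by symbol, with no coordinates shared between builds.

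From the counts, edgeR 4.0.16 in R 4.3.3 was run with filterByExpr, TMM scaling and a robust quasi-likelihood fit of all 29 libraries with 1 coefficient per group (16632 genes, 23 residual degrees of freedom). PBP replicate 5 alone was compared in a fit of the 16 XDP libraries (17933 genes, 12 residual degrees of freedom). P-values are two-sided and Benjamini-Hochberg adjusted over all genes of a fit, and calls are at an adjusted p under 0.05. CPM are TMM-scaled, with mean ± SD over libraries. A gene at 0 counts is bounded at 3 counts over the PBP group, 0.0713 CPM, which covers counting error only. No pair of libraries within LBL or PBP agreed within sampling noise (chi-square per degree of freedom 6.454 to 32.45 over 20 pairs). Recovery of changed genes was tested on simulated data (200 genes changed). DESeq2 1.42.0, limma-voom 3.58.1 and other settings were alternatives.

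The libraries compared, the gene lists and the tests were chosen with earlier results of these data known. Named genes were the 12 with the largest rise and the 12 with the largest fall among called genes with at least 2 CPM, no overlap and a full symbol, 8 each also called against PBP replicate 5, up to 4 called members per list with the smallest adjusted p and those with the largest rise and fall, and 27 fixed genes. The genes whose value is given in every library were picked with their values known. Some genes are not reported here.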

Additional observations from a re-analysis of the deposited data

Results flagged for a closer look

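Within the groups of 5, single libraries stood apart from the other 4 in 10 of 68 tested sets of values, where chance gives about 1 in 20. PBP replicate 5, the XDP library of its group, accounted for most of them. Its CPM was the highest of PBP for Snap25 (44.9), Mbp (91), Lrg1 (0.932) and Camp (0.621) and the lowest for P2ry12 (7459). Its mean log2 CPM was also the highest of PBP for the astrocyte markers (3.50) and the neutrophil markers (-0.45), and its RNA quality number of 7.4 was the lowest. PBP replicate 1 stood apart by Tnf (7.14 CPM), and LBL replicate 1 by Trem1 (27.1 CPM). Beside these 10 sets, PBP replicate 1 also had far higher counts of Fos, Egr1 and Jun than the other PBP libraries. Without PBP replicate 5, 3334 genes (20.2%) were higher and 2671 (16.2%) lower in LBL than in PBP, and 12 of 13 neuron markers and 10 of 13 astrocyte markers were called higher.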

How the results depend on the processing

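The counts of genes called in LBL against PBP stayed within 1.5 times of 2423 and 2261 under other scaling, filtering, tools and samples in the fit, and moved to 945 higher and 664 lower with sorter in the fit and to 932 and 449 with the LBL library of sorting day 2 alone; the cause was not tested. Leaving out 1 library gave 1896 to 3334 higher and 1893 to 2671 lower, the most without PBP replicate 5. Against PBP replicate 5 the ranges were 813 to 908 and 466 to 602, and in LBL against PBL 232 to 553 and 416 to 777, the lowest without PBL replicate 4 and LBL replicate 2; leaving out PBL libraries was added after the data were seen. First-LPS genes still called were 839 to 1046 higher and 434 to 474 lower (499 with all libraries), and 526 and 227 against PBP replicate 5. The difference from the undepleted response had 0 calls under other scaling, filtering and tools, with a replicate block and with 1 LBL or PBP library left out. Replicate numbers do not pair the samples: deviations of same-numbered LBL and PBP libraries correlated at -0.0893 to 0.0554, and no LBL library correlated best with its own number. With a replicate block, 2798 and 2332 genes were called against PBP, and 675 and 289 against PBP replicate 5. Of 133 named genes called, 116 kept their call in every setting outside the comparisons with PBP replicate 5, sorter and sorting day 2 alone. With sorter in the fit and against PBP replicate 5, which rest on the same PBP library, the signs of some genes turned. These were H2-DMa (0.05 and 0.04), Mcm3 (0.18 and 0.16), Clu (-0.34 and -0.35), Aldoc (-0.30 and -0.32), Mbp (-0.01 and -0.03), Mobp (-0.18 and -0.19) and Pecam1 (0.02 and 0.01), and the uncalled Tnfaip3 (0.18 and 0.17) and Csf1r (0.13 and 0.12). Camk2a was at -0.11 on sorting day 2 alone, Camp at -3.17 to 0.00 with 1 library left out (0.00 without PBP replicate 5), and S100a9 at 0.20 by limma-voom and at -1.55 to 2.55 with 1 library left out (2.55 without PBP replicate 5). At these depths, genes of a few counts, such as the neutrophil markers, cannot be ordered between LBL and PBP.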
